A study of Mus musculus with 9 samples.

Results

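In a mouse T-cell lymphoma, many H3K27me3 peaks lay far from any peak of Polycomb repressive complex 2 (PRC2), and these are called PRC2-distant peaks here. They were selected on the measured positions of 3 peak lists: a peak belonged to the set when no EZH2 or SUZ12 peak lay within 50 kb of either of its edges. Of the 123056 H3K27me3 peaks on the 19 autosomes, X and Y, 44588 met this rule, which is 36.2% (95% Wilson interval 36.0 to 36.5%). The distances are therefore a description and not a result. The share depended on the distance chosen, with 54.4% at 25 kb and 18.7% at 100 kb.

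The chromatin came from MYCN-driven T-cell lymphoma cells of the thymus of C57BL/6J mice and was profiled by ChIPmentation, in which a transposase puts sequencing adapters into antibody-bound chromatin. All groups shared this genotype and tissue: 1 library each for H3K27me3, EZH2, SUZ12, H3K27ac, H3K4me3, N-MYC and p300, and 2 input libraries that were not analysed here. The promoter or recombinase that drives MYCN, the age and number of the animals, and whether the libraries came from 1 animal or several are not given in the sources used here. With 1 library per antibody there is no replicate check and no p-value. The intervals given here hold counting error alone, as if each peak were independent of the next. The number of reads is unknown, and a list holds only sites above the authors' threshold, so a missing EZH2 or SUZ12 peak means that no call was made. In bulk chromatin, a mark in few cells and a weak mark in all cells cannot be told apart.

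As background, PRC2 methylates lysine 27 of histone H3. EZH2 is its catalytic subunit and SUZ12 a core subunit needed for its stability. The complex is recruited mainly to CpG-rich promoters of silent developmental genes, and the trimethylated mark can spread from such sites over neighbouring chromatin, because another subunit, EED, binds the mark and stimulates the enzyme. H3K27me3 can therefore occur in broad, weakly marked regions where the complex itself is hard to detect, both over silent genes and between genes.

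The labelled cell type was checked through active marks within 1 kb of the ends of marker genes. All 10 T-lymphocyte markers read (Cd3e, Cd3d, Cd3g, Lck, Cd2, Thy1, Ptprc, Cd5, Zap70 and Lat) carried H3K4me3 and H3K27ac and none carried H3K27me3. H3K4me3 was also called at 2 of 5 B-lymphocyte, 1 of 5 myeloid, 2 of 4 epithelial, 0 of 3 fibroblast and 3 of 3 erythroid markers. The part of other cell types in the results was not tested.

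Many of the strongest PRC2-distant peaks lay at gene starts. Starts were known for 17492 of 21779 protein-coding genes, and a high peak at another start is not covered. Printed here are the promoters of the 4 genes with a known start that had the highest such peaks. They are shown for their CpG content, the sequence feature for which PRC2 target promoters are known. Sp9, a zinc finger transcription factor gene at which EZH2 fold enrichment was highest among protein-coding promoters with EZH2, SUZ12 and H3K27me3 that were considered (28.8), is shown beside them. Each line gives the 250 bases before the transcription start, 5′ to 3′ on the strand of the gene, from RefSeq on GRCm38.p6, with CpG dinucleotides in capitals.
Slc2a13: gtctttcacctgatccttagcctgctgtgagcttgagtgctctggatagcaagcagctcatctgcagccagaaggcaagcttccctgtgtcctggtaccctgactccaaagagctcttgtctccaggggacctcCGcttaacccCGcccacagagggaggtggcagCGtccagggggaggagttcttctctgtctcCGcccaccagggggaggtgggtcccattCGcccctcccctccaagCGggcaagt
Prkg1: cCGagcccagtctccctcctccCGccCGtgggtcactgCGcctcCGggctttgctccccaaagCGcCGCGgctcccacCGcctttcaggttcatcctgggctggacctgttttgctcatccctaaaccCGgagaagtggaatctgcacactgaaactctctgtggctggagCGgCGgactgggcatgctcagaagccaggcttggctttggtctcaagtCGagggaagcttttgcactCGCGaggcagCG
Gulp1: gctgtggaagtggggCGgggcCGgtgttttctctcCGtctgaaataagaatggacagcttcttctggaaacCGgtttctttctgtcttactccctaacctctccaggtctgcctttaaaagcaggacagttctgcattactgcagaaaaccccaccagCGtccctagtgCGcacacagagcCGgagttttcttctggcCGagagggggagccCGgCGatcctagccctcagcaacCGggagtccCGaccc
Egf: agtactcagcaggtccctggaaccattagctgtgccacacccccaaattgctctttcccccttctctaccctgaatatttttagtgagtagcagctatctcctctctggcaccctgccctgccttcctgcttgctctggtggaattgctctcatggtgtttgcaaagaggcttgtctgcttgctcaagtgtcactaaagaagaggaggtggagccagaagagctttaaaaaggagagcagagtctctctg
Sp9: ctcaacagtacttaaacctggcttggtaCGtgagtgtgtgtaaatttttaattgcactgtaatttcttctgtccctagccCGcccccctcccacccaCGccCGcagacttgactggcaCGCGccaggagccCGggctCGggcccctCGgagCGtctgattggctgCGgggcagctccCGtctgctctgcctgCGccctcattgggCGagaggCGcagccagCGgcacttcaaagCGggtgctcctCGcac
The promoters of Slc2a13, Prkg1 and Gulp1 held 6, 16 and 12 CpGs in these windows, that of Egf held 0, and that of Sp9 held 18. Their windows are chr15:91573262-91573511 (minus strand), chr19:31664371-31664620 (minus), chr1:44551421-44551670 (plus), chr3:129755323-129755572 (minus) and chr2:73271676-73271925 (plus). Slc2a13 encodes a myo-inositol transporter, Prkg1 a cGMP-dependent protein kinase, Gulp1 an adaptor of phagocytosis and Egf the epidermal growth factor.

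PRC2-distant peaks were narrow and low. Their median width was 342 bp (quartiles 246 and 559 bp), and the middle of the authors' fold enrichment, a linear ratio over background, was 4.13 (3.58 to 4.84). The 73324 H3K27me3 peaks that lay within 50 kb of a PRC2 peak without touching one were similar, with medians of 388 bp and 4.18. Against both stood the 5144 H3K27me3 peaks that touched EZH2 or SUZ12, with a median width of 5661 bp and a median fold enrichment of 11.04. Peaks of at least 5 kb made up 0.538% of the PRC2-distant set (240 peaks), 0.907% of the nearby peaks and 56.5% of the touching peaks. Because most of them were short, the PRC2-distant peaks held 22.7% of the length covered by the H3K27me3 list, or 25.4 of 111.6 Mb. The median width follows how the caller splits a region: it was 1771 bp when H3K27me3 peaks within 3 kb were merged first.

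Among peaks that did not touch PRC2, the median width was smaller at larger distances, from 576.5 bp up to 1 kb from the nearest PRC2 peak to 432 bp at 1 to 5 kb and 362 bp at 20 to 50 kb. Past the threshold it was 350 bp at 50 to 100 kb, 327 bp at 200 to 500 kb and 361 bp over 1000 kb. The median fold enrichment was 4.78 up to 1 kb, 4.33 at 1 to 5 kb, 4.10 at 20 to 50 kb and again 4.10 at 50 to 100 kb. Beyond the threshold it was 4.11 at 100 to 200 kb, 4.17 at 200 to 500 kb, 4.29 at 500 to 1000 kb and 4.47 in the 514 peaks more than 1000 kb away. The ranges between quartiles of these bins overlapped throughout. The farthest bin also differed in make-up, with 16.3% of its peaks on X against 0.981% at 50 to 100 kb. The median distance of a PRC2-distant peak from PRC2 was 102 kb (quartiles 70.5 and 171 kb).

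**Figure D1:**
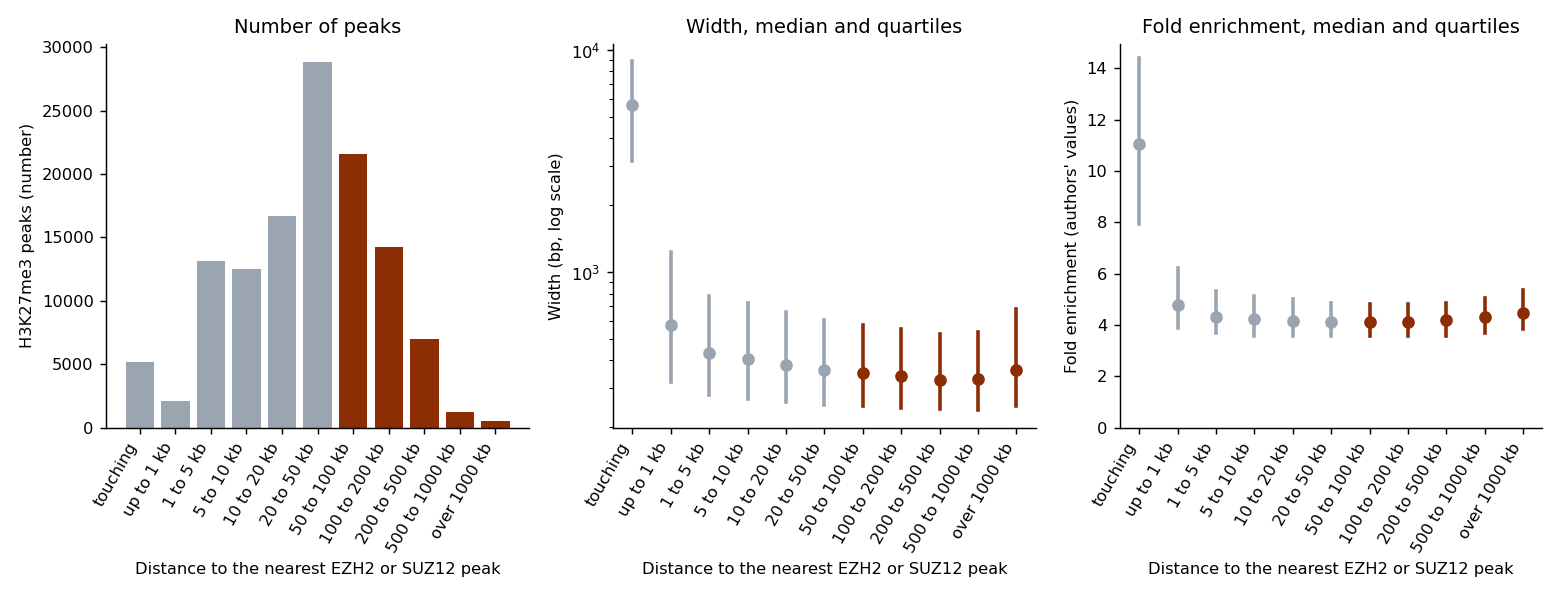
Number, width in bp (log scale) and fold enrichment of H3K27me3 peaks by distance to the nearest EZH2 or SUZ12 peak; points are medians and lines run between quartiles, with PRC2-distant peaks in brown and the other H3K27me3 peaks in grey. Touching peaks stand apart at a median of 5661 bp and a fold enrichment of 11.04, while the bins on both sides of 50 kb lie close together.

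The 3 PRC2-distant peaks closest to the threshold lay 50001, 50001 and 50002 bp from PRC2, near Acyp2, near Slc35c1 and in Cep112, with fold enrichments of 3.94, 5.49 and 4.31. The 3 H3K27me3 peaks just outside lay 49996, 49993 and 49985 bp away, in Ccdc30, near Cpz and in Lypd8, with 3.29, 3.70 and 3.69. Among these 6 peaks the 3 inside were the higher ones, but the median was 4.10 both at 20 to 50 kb and at 50 to 100 kb.

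Location relative to genes was read against the sequence in which a PRC2-distant peak could lie, called eligible sequence: all bases between the outermost features of a chromosome that are more than 50 kb from every PRC2 peak (1916 Mb). Of the PRC2-distant peaks, 19784, or 44.4% (43.9 to 44.8%), overlapped the body of a protein-coding gene by at least 1 bp, and 24804 lay outside. Protein-coding gene bodies made up 31.6% of eligible bases, so the share of peaks was 1.40 times the share of bases. The ratio depended on which peaks counted as PRC2. It was 1.16 with SUZ12 alone and 1.15 with EZH2 counted only where it overlapped H3K27me3. The eligible bases include 90.7 Mb of Y, which was 2.53% genic and held 1 peak, and this raises the pooled ratio. The nearby peaks that did not touch PRC2 had almost the same genic share, 45.4%, but their surroundings were more genic, at 57.1% of bases, which gave a ratio of 0.794. Touching peaks were genic in 77.4% of cases, 1.36 times the share of the same bases, so a ratio above 1 was not particular to the PRC2-distant set. A wider peak meets a gene by 1 bp more readily, and the median widths were 5661 and 342 bp, so the ratios are not matched. By peak summits the ratio of the PRC2-distant set was 1.38. The part of width in the ratio of touching peaks was not tested. Exons, introns and UTRs were not distinguished here.

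The ratio exceeded 1 on all 19 autosomes and on X. It ran from 1.07 on chromosome 16 to 1.63 on chromosome 3 among the autosomes, with a median of 1.26, and was 1.95 on X. Counting genes of every class, including long noncoding RNAs, 56.6% of the PRC2-distant peaks were genic against 39.8% of eligible bases. The 24804 peaks outside protein-coding genes, of which 5471 lay in genes of other classes, were at a median of 43.3 kb from the nearest protein-coding gene (quartiles 12.9 and 95.4 kb), 20.9% were within 10 kb and 23.7% were more than 100 kb away. Peaks inside and outside protein-coding genes differed little in size, with median widths of 349 and 338 bp and median fold enrichments of 4.17 and 4.10, but fold enrichments of 10 or more were found in 0.986% of the former and 0.314% of the latter.

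The share of peaks at gene starts was larger among the higher peaks. Within 1 kb of a RefSeq transcription start lay 4.12% (3.85 to 4.41%) of PRC2-distant peaks with a fold enrichment under 4, 5.13% of those at 4 to 6, 12.6% of those at 6 to 10 and 42.9% (37.1 to 48.8%) of the 273 peaks at 10 or more. Windows of that size around starts made up 1.23% of eligible bases. The corresponding share was lower in nearby peaks, where 11.95% (9.40 to 15.1%) of the 502 peaks with a fold enrichment of 10 or more were at a start. The touching peaks in that class were at a start in 61.7% of cases. The median width of the PRC2-distant peaks went over the 4 classes from 270 to 387, 1194 and 3971 bp. A wider peak meets a window around a start more readily, so the 1.23% of bases is not a matched base for each class. The part of width in the rise was not tested.

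CpG content of the 300-base promoter windows (250 bases before and 50 after the start) followed the same order. A CpG is the motif CG, which reads the same on both strands. The 1197 promoters overlapped by a PRC2-distant peak had a median of 7 CpGs (quartiles 4 and 16), and 27.2% (24.7 to 29.7%) had 15 or more. Promoters overlapped by a touching peak had a median of 18, and 60.9% had 15 or more. At the promoters met by nearby peaks alone the median was 4 and the share 11%, and at the 11801 promoters in eligible sequence without H3K27me3 the median was 3 and the share 7.07% (6.62 to 7.54%). Over all 32851 promoters 34.6% had 15 or more. Within the PRC2-distant set the median was larger in the higher classes, from 5 CpGs at promoters under peaks of fold enrichment under 4 to 6, 9 and then 15 in the highest class.

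Of the 8 PRC2-distant peaks of highest fold enrichment, 7 lay in a gene body. The highest, 17.97, was 3967 bp wide at the start of Slc2a13 (chr15:91570108-91574074) and lay 890 kb from PRC2. The peak at the Prkg1 start reached 17.89 (chr19:31661488-31666895, 5408 bp), and those in Nipal2 and in Ptprn2, a phosphatase-like protein of secretory granules, reached 16.7 and 16.6. Gulp1 (15.8), Fhl1, a LIM-domain protein of muscle on X (15.5), and the overlapping genes Atp6v0a4 and Tmem213 (15.5) followed, with a peak 14.7 kb from Gpnmb (15.7) as the exception. Other genes with a high peak at the start were Egf (15.4), the large cadherin genes Fat3 (15.2) and Dchs2 (15.03), with Gm10710 under the same peak as Dchs2, and the ephrin receptor gene Ephb1 (14.997). Fat3 had its peak 1005 kb from the nearest PRC2 peak. None of these peaks at known starts met H3K4me3 or H3K27ac at that start, although both marks were called at another start of Egf. H3K4me3 was called at 1 of the 8 highest peaks, that of Fhl1, and H3K27ac at none of them.

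The widest PRC2-distant peaks were different ones. Ppfibp2, encoding a liprin, held the widest, of 15502 bp and fold enrichment 10.9. Further wide peaks lay 32.2 kb from Syt13 (15188 bp), in Plekha6 (14889 bp), in Akap6, which anchors protein kinase A in muscle (14291 bp), in Sox5, a transcription factor gene (14286 bp), 21.0 kb from Ccdc167 (13631 bp), 156 kb from Ankrd50 (13265 bp) and in Apol9a (12937 bp). Their fold enrichments varied from 2.82 in Sox5 to 13.2 in Apol9a.

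PRC2-distant peaks came in runs. The median gap from 1 peak of the set to the next on the same chromosome was 643 bp (quartiles 216 and 3173 bp), and 58.8% of gaps were under 1 kb. Joined across gaps of up to 5 kb, the 44588 peaks formed 9473 runs with a median length of 2.54 kb. Single peaks made up 33.8% of runs but 7.18% of peaks, whereas 1093 runs of at least 10 peaks held 46.2% of peaks. In 587 runs of at least 20 kb lay 32.1% of the peaks. When all H3K27me3 peaks were joined in the same way, 2.51% of the PRC2-distant peaks (1118) were in a run that also contained a PRC2 peak, against 59.6% of the other H3K27me3 peaks, a contrast to which the rule contributes because it keeps the set away from PRC2.

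The longest run spanned 171 kb of Dnah14, an axonemal dynein heavy chain gene, with 132 peaks that covered 44.3% of it. Runs in Sox5 (109 kb, 64 peaks), Cep112, a gene for a centrosomal protein (108 kb, 80 peaks), and Kcnn3, a calcium-activated potassium channel gene (88.0 kb, 56 peaks), were denser, with 64.6, 64.1 and 56.6% covered. A run of 92.5 kb crossed Pik3r6, Mfsd6l and Ccdc42, and 1 of 83.3 kb crossed the predicted genes Gm40275 and Gm36182. The other 4 of the 10 longest touched no protein-coding gene: 111 kb on chromosome 19 nearest to Lipo4 at 94.97 kb, 104 kb on chromosome 2 nearest to Cdca7 at 119 kb, 104 kb on chromosome 2 at 46.2 kb from Bcl2l11, the gene of the death-promoting protein BIM, and 82.7 kb on chromosome 19 at 42.9 kb from Slc22a12.

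Chromosomes differed in density. The autosomes together had 26.1 PRC2-distant peaks per Mb of eligible sequence (25.9 to 26.4, exact Poisson interval), and their median was 22.7. Chromosome 11 had 71.6 per Mb (69.6 to 73.7), chromosome 19 had 49.8 (47.5 to 52.2), chromosome 9 had 40.6 (39.2 to 42.0) and chromosome 2 had 37.2 (36.1 to 38.3). The other 15 autosomes were between 17.8 on chromosome 4 and 26.9 on chromosome 6, so their range did not reach these 4. Runs were both more frequent and larger on chromosome 11, with 10.4 runs per Mb and 6.90 peaks per run against autosomal medians of 4.93 and 4.39.

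The 10 densest 1-Mb intervals of chromosome 11 held 33.6% of its PRC2-distant peaks, against an autosomal median of 40.9%. Chromosome 11 was also the autosome with the most EZH2, SUZ12, H3K27ac and H3K4me3 peaks per Mb, with 60.9 H3K27ac peaks per Mb against a median of 34.8, and had 13.5 protein-coding genes per Mb against 7.85. Chromosome 7, with 14.2 genes per Mb, was the most gene-dense and had 21.3 PRC2-distant peaks per Mb. Across the 19 autosomes, which share 1 library, Spearman's rho of the density was 0.347 with gene density, 0.286 with H3K27ac density over the whole chromosome, 0.474 with H3K27ac density in eligible sequence and 0.542 with the density of the other H3K27me3 peaks in sequence near PRC2. In eligible sequence H3K27ac was densest on chromosome 17. The copy number of the chromosomes was not measured here, and its part in the densities was not tested.

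X had 933 PRC2-distant peaks or 6.09 per Mb (5.70 to 6.49), which was 0.233 times the autosomal value and below each of the 19 autosomes. The ratio was 0.356 with H3K27me3 peaks merged within 3 kb. X was low in other lists too, with 6.92 H3K27ac, 1.43 EZH2 and 0.746 SUZ12 peaks per Mb against lowest autosomal values of 22.1, 5.45 and 2.91, and 51.0 H3K27me3 peaks per Mb in the sequence near PRC2 against a lowest autosomal value of 67.3. Because PRC2 peaks were sparse, 91.4% of X was eligible, more than on the autosomes (53.5 to 76.2%). The peaks that were called on X had a median fold enrichment of 4.47, above the autosomal range of 3.89 to 4.21, and 49.5% were genic against 25.3% of eligible bases. Y had 1 such peak. The sex of the animals is not given in the sources used here, and the part of X copy number in these values was not tested.

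**Figure D2:**
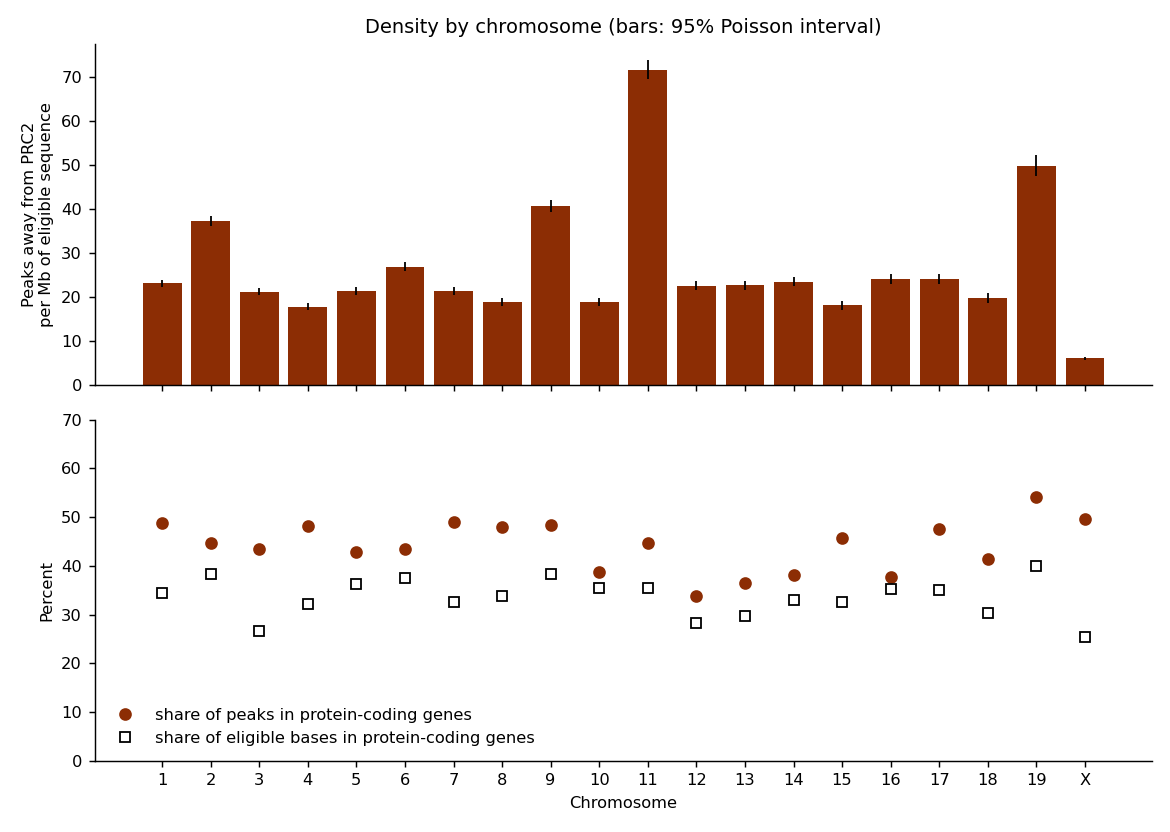
Above, PRC2-distant peaks per Mb of eligible sequence on the autosomes and X, with 95% Poisson intervals; below, the percent of those peaks (brown) and of eligible bases (open squares) inside protein-coding genes. Chromosome 11 reaches 71.6 per Mb and X 6.09, and the brown points lie above the squares on each chromosome shown.

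At least 1 PRC2-distant peak lay in the body of 2419 of 21779 protein-coding genes, which is 11.1%. Of the 10071 genes that held at least 200 bp of eligible sequence the share was 24%. The share of all genes was 6.63% with a distance of 100 kb. A gene with such peaks held a median of 4, 543 genes held 10 or more and 52 held 50 or more. The 100 genes with the most peaks contained 30.6% of the genic ones. Gene length mattered: the share with a peak was 10.6% (9.58 to 11.6%) for genes under 10 kb, 24.5% at 20 to 50 kb, 35.0% at 100 to 200 kb and 54.5% (51.3 to 57.5%) over 200 kb, while the density of peaks per eligible Mb went from 85.0 to 22.1.

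Active marks at the start were called in a smaller share of the genes with PRC2-distant peaks, a difference that could not be tested over replicates. H3K4me3 was called within 1 kb of a start at 18.2% (16.5 to 20.02%) of the 1899 such genes with a known start, against 34.6% (33.4 to 35.8%) of 6229 genes with eligible sequence and no such peak. For H3K27ac the shares were 13.2 and 35.0%. Over all 17492 protein-coding genes with a known start, 52.1% had H3K4me3 and 52.2% had H3K27ac. The difference had the same direction in the 5 length classes from 10 kb upward, for instance 19.1% (15.2 to 23.8%) against 72.6% (69.8 to 75.2%) at 50 to 100 kb and 23.0 against 57.8% over 200 kb. Under 10 kb it was the other way round, with 8.42% (5.77 to 12.1%) against 4.69% (3.94 to 5.59%). Many genes of this class are olfactory and vomeronasal receptors, with median lengths of 0.948 and 0.96 kb. Of these, 41 of 1022 and 7 of 339 with eligible sequence held a PRC2-distant peak. Their part in the 4.69% was not tested. Neither H3K4me3 nor H3K27ac was used to choose the peaks, but most peaks of both marks lay within 50 kb of PRC2. Only 13.9% of H3K4me3 and 31.3% of H3K27ac peaks lay farther away. A gene counted with as little as 200 bp of eligible sequence, so its start could lie near PRC2, where no PRC2-distant peak can be. The part of the rule in these differences was therefore not separated and not tested.

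Of the PRC2-distant peaks, 1.33% met a peak of at least 1 of the other 4 lists. H3K27ac was overlapped by 457 of them (1.02%, 0.936 to 1.12%), H3K4me3 by 201 (0.451%, 0.393 to 0.517%), N-MYC by 21 (0.0471%) and p300 by 11 (0.0247%). Of eligible bases, H3K27ac peaks covered 1.06%, H3K4me3 peaks 0.140%, N-MYC peaks 0.0257% and p300 peaks 0.0545%. A share of peaks that overlap by at least 1 bp is not the same quantity as a share of bases. It can be larger without any preference, so neither is ranked against the other here. Nearby peaks had 1.85% on H3K27ac and 0.645% on H3K4me3, and touching peaks 17.3 and 31.3%. The H3K27ac share of the PRC2-distant set was 1.55% when SUZ12 alone set the distance and 2.42% for peaks merged within 3 kb. Where both H3K4me3 and the repressive mark were called, the highest fold enrichments of H3K27me3 were at Fhl1 (15.5), Agap1 (12.8), the delta opioid receptor gene Oprd1 (12.6) and Hook1 (11.3), none of which had H3K27ac at that peak. Enpp4 (10.7) had both active marks on its peak.

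Within genes of at least 20 kb that lay wholly in eligible sequence and held such a peak (627 genes with a known start), the first of 10 equal segments from start to end was covered to 18.4% on average. The other segments were covered to between 3.92 and 5.70%, the 10 kb upstream to 9.79% and the 10 kb downstream to 5.04%. In the first segment 72.2% of these genes had a peak, against 17.5 to 26.0% in the others. The 116 genes with 10 or more peaks were covered more evenly, with 27.3% in the first segment and 15.6 to 19.3% beyond it. These 116 are among the 627 and were chosen by their number of peaks, which bears on how evenly they are covered.

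**Figure D3:**
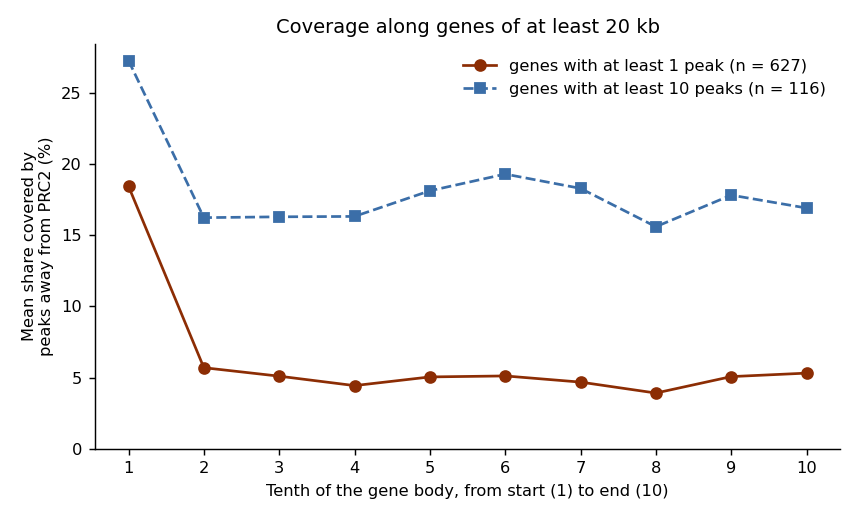
Mean percent of each of 10 equal segments of the gene body, in the direction of the gene, that PRC2-distant peaks covered, in 627 genes of at least 20 kb with at least 1 peak (circles) and the 116 of them with at least 10 (squares). The first segment is highest in both, at 18.4 and 27.3%.

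The genes with the most PRC2-distant peaks were long. Cep112 held 176, covering 29.3% of its 435 kb, and a further 104 H3K27me3 peaks closer to PRC2. Slit3, a secreted guidance cue for axons, held 153, Dnah14 140, Dock3, an activator of Rac in neurons, 138, Pard3, a cell polarity gene, 134 and the predicted gene Gm11639 132. Igf1r, the receptor of insulin-like growth factor, held 114 that covered 32.0% of it and was the 1 gene among the 11 of these 12 with a known start that had H3K4me3 there. It had no H3K27ac there. Pde10a (113), a cyclic nucleotide phosphodiesterase of the striatum, Myo3b (104), a myosin of sensory cells, Unc13b (101), which primes synaptic vesicles, Dnah9 (99) and the homeobox gene Pknox2 (96) completed the 12. The median fold enrichment within a gene ran from 4.11 in Slit3 to 4.75 in Cep112, near the 4.13 of the whole set. In 9 of the 12 a PRC2 peak lay elsewhere in the gene, the others being Dnah14, Gm11639 and Dnah9.

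Relative to length, other genes led. Cttn, which encodes the actin-binding protein cortactin, was covered to 73.9% of its 35.8 kb by 15 PRC2-distant peaks, and Cmklr1, the receptor of the chemoattractant chemerin, to 67.1% by 19. Lrrc37a (59.7%), Csf2rb, the common chain of the receptors for interleukin 3, interleukin 5 and GM-CSF (59.6%), Cacna1f, a calcium channel gene of the retina on X (58.3%), BC051142 (58.0%), Plekhs1 (55.8%) and Olah, a thioesterase gene of fatty acid synthesis (54.2%), followed among genes of at least 20 kb. Of the 1810 genes of that length with such a peak, 11 were covered to 50% or more. In 7 of these 8 genes no H3K27me3 peak lay closer to PRC2 within the body, Lrrc37a being the exception with 7. H3K4me3 and H3K27ac were called at the start of BC051142 and at none of the other 5 with a known start.

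Several gene families stood well away from the shares that their lengths would give. To allow for length, each list was set beside the mean of the shares of its genes' length classes, as a description without a test. That value does not allow for chromosome, and the intervals treat neighbouring genes as independent. PRC2-distant peaks lay in 23 of 35 interleukin and chemokine genes with eligible sequence, 65.7% (49.2 to 79.2%), against 14.3% from their length classes. Il33, an alarm cytokine of epithelial and stromal cells, held 28 peaks covering 37.0% of the gene, Il12b, the shared subunit of interleukins 12 and 23, held 16 covering 65.7%, Ccl4 held 10 and Il19 held 7. Keratins and keratin-associated proteins had 27 of 82 genes with a peak, 32.9% (23.7 to 43.7%) against 11.4%, led by Krt20 with 11 peaks and by Krt73, Krt10 and Krt82 with 10 each. Most of these 27 genes lie on chromosome 11, the densest at 71.6 PRC2-distant peaks per Mb, as do Il12b and Ccl4. The part of chromosome and of gene clusters in these shares was not tested. Voltage-gated channel genes had 23 of 33, 69.7% against 39.6%, with 72 peaks in Kcnq1, a potassium channel gene in an imprinted locus, 31 in Kcnh1, 28 in Cacna1b and 27 in Cacna1c.

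In 3 lists of cell-surface genes with many neuronal members and in the cytochrome P450 genes the share was nearer to that of the length classes. The synaptic and neuronal adhesion genes had a peak in 31 of 54 cases, 57.4% (44.2 to 69.7%) against 52.4%, with 79 in Dscaml1, 49 in Sdk2, 46 in Cntnap2 and 25 in Dlg2. Glutamate and GABA receptor genes had 21 of 37, 56.8 against 42.5%, led by Grik4 with 38 and Grm4 with 14. Cadherins had 9 of 18, 50 against 40.6%, led by Cdh23 with 21. Cytochrome P450 genes had 15 of 73, 20.5 against 22.1%, with 9 in Cyp4f40 and 8 in the aromatase gene Cyp19a1. The intervals of these 4 lists held the value from the length classes.

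PRC2-distant peaks were few in the large chemosensory receptor families, of which 1022 of 1109 olfactory and 339 of 350 vomeronasal receptor genes had eligible sequence. Of 1022 olfactory receptor genes 41 had a peak, 4.01% (2.97 to 5.40%) against 10.8% from their length classes, and of 339 vomeronasal receptor genes 7, or 2.06% (1.004 to 4.20%) against 15.04%. Both families are themselves counted in the length classes. Olfr78, with 14 peaks, held the most in the former family, and Vmn2r9, with 6, in the latter. Serpins had 4 of 59, 6.78% (2.67 to 16.2%) against 19.3%, and zinc finger genes named Zfp 17 of 151, 11.3% (7.15 to 17.3%) against 26.1%. Zfp469 held 49 of the 85 peaks in the latter. The intervals held the value from the length classes for taste receptors, with 1 of 33 (Tas1r2), and for defensins, with 4 of 56, 7.14% against 11.3%. The 4 defensin genes were all on chromosome 14, with 5 peaks in Defb43, 3 in Defb47, 2 in Defb48 and 1 over the whole of Defb30. Kallikreins and Klr lectin-like receptors each had 4 of 23, 17.4% (6.98 to 37.1%) against 15.04 and 23.2%.

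Lineage genes were read next. In the T-cell list, 4 of 26 genes with eligible sequence had a PRC2-distant peak, 15.4% (6.15 to 33.5%), an interval that held the 27.4% from their length classes. Icos, a costimulatory receptor of activated T cells, held 11 that covered 45.5% of the gene with fold enrichments from 2.88 to 10.1, and the gene lay 394 kb from PRC2. The coreceptor genes Cd8a and Cd8b1 held 2 and 6, with highest values of 8.29 and 5.47, and the nearest PRC2 peaks lay 60.6 and 50.3 kb from the ends of these genes. Il2ra held 1 weak peak (2.75) and 23 further H3K27me3 peaks closer to PRC2.

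The B-cell list had 6 of 8 genes, 75% (40.9 to 92.9%) against 32.9%. Blnk, an adaptor of B-cell receptor signalling, held 21, the lineage factors Ebf1 and Pax5 held 12 each, Cd22 7 and Bank1 4. Ebf1 and Pax5 also had a PRC2 peak in the gene and 35 and 26 H3K27me3 peaks closer to it, whereas Blnk, Cd22 and Bank1 had none. H3K4me3 was called at the start of Blnk and of Cd22. In the myeloid list 6 of 13 genes had a peak, 46.2% (23.2 to 70.9%) against 24.7%. Lyz2, the macrophage lysozyme, held 6 covering 77.2% of the gene, Csf1r 6, Ly86 4, and Mrc1 and Adgre1 2 each, while the Spi1 peak met the gene by 0.002 kb. With 8 and 13 genes these lists are small, and the myeloid interval held the value from the length classes. None of the 39 Hox genes had eligible sequence, and H3K27me3 was called at all 39. Of 81 ribosomal protein genes 2 had eligible sequence and 0 had a peak.

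**Figure D4:**
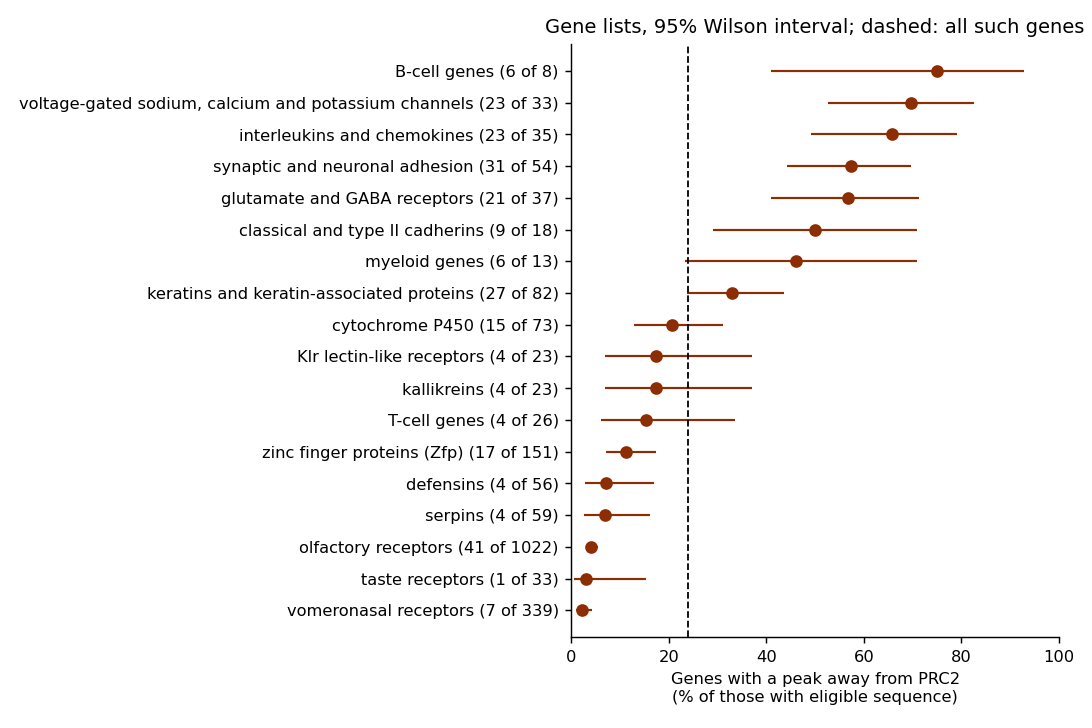
Percent of the genes of each list that held a PRC2-distant peak, among those with at least 200 bp of eligible sequence, with 95% Wilson intervals and the number of genes; lists of under 8 such genes are left out and the dashed line marks the 24% over all such genes. B-cell, channel and interleukin and chemokine genes lie to the right, and olfactory, taste and vomeronasal receptors at 4.01, 3.03 and 2.06%.

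**Figure D5:**
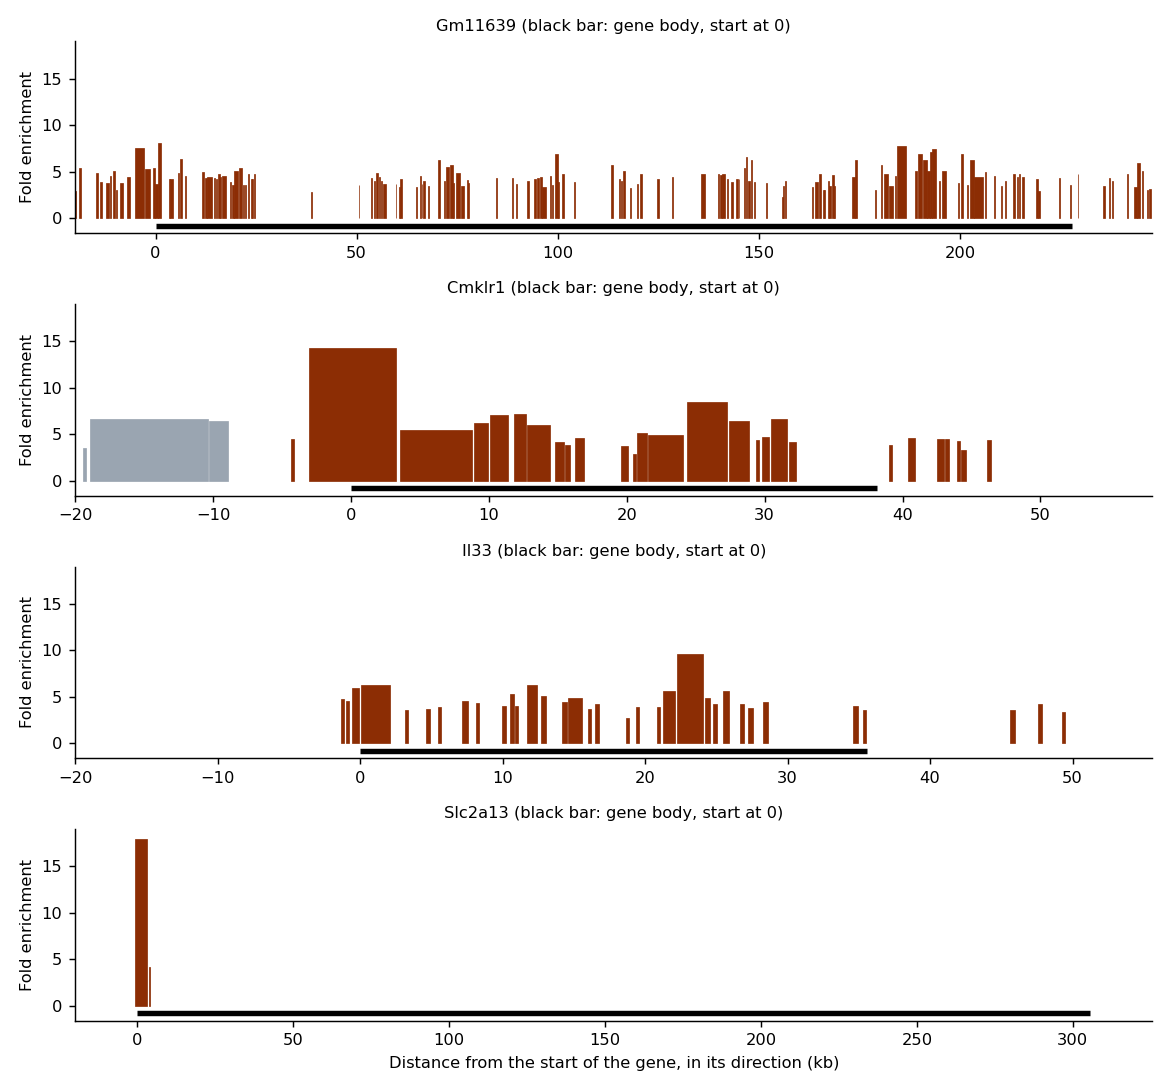
H3K27me3 peaks along 4 genes in kb from the gene's start, with fold enrichment as height, PRC2-distant peaks in brown, other H3K27me3 peaks in grey and the gene body as a black bar. Gm11639 (132 peaks) and Il33 (28) are crossed by many low peaks, Cmklr1 (19) combines a peak of 14.3 at the start with peaks through the gene, and Slc2a13 has a peak of 17.97 at its start and 1 other of 4.17.

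Those 4 genes show the forms that the set took. Gm11639 and Il33 carried peaks of at most 8.05 and 9.56 along the body. Slc2a13 carried 1 tall peak at the start of a gene of 306 kb that was otherwise almost without calls. A PRC2-distant peak lay within 1 kb of a start in 989 of 17492 protein-coding genes with a known start, or 5.65%, and 13.4% (11.5 to 15.7%) of those 989 also had H3K4me3 there. Counted over protein-coding promoter windows, H3K4me3 was called at 8.49% of those met by a PRC2-distant peak and at 17.1% of those in eligible sequence without H3K27me3.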

How the data were processed

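Peak lists of 7 ChIPmentation libraries from MYCN-driven T-cell lymphoma cells, 1 per antibody, were used as deposited. Fold enrichment was deposited by the authors as a linear ratio per peak, and the p-value and q-value are deposited as −log10 values, of which the latter entered an alternative. A further deposited score was not used. Units were read from the layout and values, since the files have no header. FastQC, Bowtie2, SAMtools, MACS2 and deepTools and the builds mm10 and GRCm38 are named, without versions or roles, per the submitters' processing notes. Whether the inputs served as controls, the settings and the read depth are not given in the sources used here, so the precision that depth gives is unknown.

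All lines of the H3K27me3 list were distinct peaks. Coordinates are counted from 1. Eligible sequence ran between the outermost peak or gene of a chromosome. Genes came from the RefSeq table of GRCm38.p6, of which 340 records (108 protein-coding) were left out because they start below 3 Mb on the autosomes or X, where no list has a peak. Starts and strands came from the RefSeq promoter table, which matched 17492 of 21779 protein-coding genes. Shares have Wilson intervals, densities exact Poisson intervals at 95%. Python 3.11.15, pandas 2.3.3, numpy 2.4.6 and scipy 1.17.1 were used, and the interval steps were tested on simulated data, with base-by-base counts equalled in 20 of 20 draws.

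Named genes were the 12 with the most peaks, the 8 of at least 20 kb with the highest coverage, the genes at the 8 highest and 8 widest peaks and at the 8 highest starts, those of the peaks nearest the threshold, and up to 4 per gene list, or all for the T-cell, B-cell and myeloid lists, except 1 gene that is not reported here. The peaks and the gene lists were chosen with earlier results of these data known. The fold classes, the marks at gene starts, the CpG counts, the gene-body segments and the length classes were chosen after seeing the data. Promoters on chromosome 18 were not considered for printing.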

Additional observations from a re-analysis of the deposited data

How the results depend on the processing

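Of 46 alternative values for 6 results, 10 lay inside the 95% interval around the value in the report and 36 outside it, and no ratio crossed 1. The intervals are narrow because the lists are long. Apart from the change in peaks, bases or overlap that each alternative makes, the cause was not tested. Values are given in the order share of H3K27me3 peaks in the set, median width, ratio of genic share to genic bases, share on H3K27ac, X over autosomes and share of genes. With 25 kb they were 54.4%, 347 bp, 1.32, 1.29%, 0.200 and 15.4%, and with 100 kb 18.7%, 336 bp, 1.54, 0.823%, 0.310 and 6.63%. With SUZ12 alone the first 4 were 50.002%, 350 bp, 1.16 and 1.55% and the last 15.2%. With EZH2 counted only on H3K27me3 they were 47.4%, 348 bp, 1.15, 1.39% and 14.3% in the same order. H3K27me3 peaks at a q-value of at most 1e-05 gave 33.9%, 426 bp, 1.43, 1.16% and 9.76%, and peaks merged within 3 kb gave 44.6%, 1771 bp, 1.47, 2.42%, 0.356 and 10.5%. The genic ratio was 1.42 with all genes and 1.38 by summits, and the H3K27ac share was 0.884% when 50% of the shorter peak had to overlap. Counting every line changed nothing, since all lines were distinct.

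No paired analysis was possible because each antibody has 1 library. The unknown read depth limits every statement on a missing call.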

Other observations

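Antigen-receptor variable segments were read outside the protein-coding set. A PRC2-distant peak lay on 22 of 374 V segments, or 5.88%. Of these, 15 were among the 110 Ighv segments of the immunoglobulin heavy chain locus with eligible sequence. Another 7 were among the 104 such Trav segments of the T-cell receptor alpha locus. None of the 101 Igkv and 21 Trbv segments with eligible sequence had one. The share was 10.6% for protein-coding genes under 10 kb with eligible sequence. The counts are not read as a trait of the loci, and differences between loci were not tested. Long noncoding RNA genes had such a peak in 1323 of 12639 cases, 10.5%, close to the 11.1% of protein-coding genes, and pseudogenes in 229 of 9854, 2.32%.

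Of 1005 microRNA hairpins in the RefSeq sequence table, 11 (1.09%) were overlapped by a PRC2-distant peak. Other short genes had similar shares, 0.903% of snRNA and 0.602% of snoRNA genes, so the count is not read as a trait of microRNAs. The 5 highest fold enrichments among them were 14.04 at Mir7216 and 6.37 at Mir7214, neighbours on chromosome 17, 11.3 at Mir5126, 7.88 at the miR-12196 hairpin Gm51276 and 7.78 at the miR-935 hairpin Gm23450, while Mir214 (4.17) and Mir107 (3.54) lay under weak peaks.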
